A study of Equus caballus with 34 samples.

Results

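Endothelial marker genes are genes whose products line blood and lymphatic vessels or are used to recognise the cells that do. A list of 38 such genes was looked up on the arrays by gene name or by the protein name in the probe description, and a probe was kept if 5 or more of the 34 arrays flagged it as well above background. Probes were found for 32 of the 38 genes, and all 64 of their probes were kept, out of 28479 features kept in all. A feature was a gene, or a single probe where no gene symbol was matched. Of 43603 distinct probes 21245 had a symbol, so the shares of all features given below include many probes without a gene name. Of the 32 genes, 28 belong to blood vessels or to vessels in general and 4 to lymphatic vessels. No probe was matched for CLDN5, SOX7, SOX17, SOX18, FLT4 or PDPN, which are not analysed here.

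The samples came from dominant follicles of the horse ovary. Total RNA of granulosa cells (GC), the inner cell layer around the oocyte and fluid, and of theca wall (TW), the outer vascular layer, was hybridised to Agilent single-colour arrays at an early dominant (ED), a late dominant (LD) and a preovulatory (PO) stage. Each group held 5 arrays except TW LD, which held 9, so 15 arrays were GC and 19 were TW. The design text calls the samples of a group biological replicates and compares stages within each cell type, ED with LD and LD with PO. The labels give no breed, age, treatment or hormone dose for any group, and no source used here says whether a GC and a TW sample came from the same follicle or mare.

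In a growing follicle the capillary bed lies in the theca, outside the basement membrane that encloses the granulosa, and the granulosa layer has no vessels of its own until the follicle ruptures and becomes a corpus luteum. Endothelial cells carry junction and surface proteins such as PECAM1 and VE-cadherin (CDH5), transcription factors of the ETS family, proteins that hold clotting in check or start it, and Notch, ephrin and lipid receptors that set arterial and venous character. Lymphatic vessels also run in the theca and are recognised by PROX1, the transcription factor that sets lymphatic identity, together with the hyaluronan receptor LYVE1 and the secreted protein MMRN1.

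The values rest on 60-base probes. Probes of VWF, THBD, EMCN and MMRN1 are printed here 5′ to 3′ as the scanner files give them, with the chromosome positions of the array's design. No source used here gives the build of those positions. The VWF probe belongs to the haemostasis gene with the largest layer difference and lies at chr6:33815717-33815776, and the THBD probe at chr22:2372182-2372241 belongs to the member with the largest stage change in TW.
VWF: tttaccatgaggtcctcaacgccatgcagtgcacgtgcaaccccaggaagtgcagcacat
THBD: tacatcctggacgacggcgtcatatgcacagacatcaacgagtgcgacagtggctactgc
EMCN, which was not well above background on any GC array, is read by 5 probes whose starts span 4 bases; the outermost probes, at chr3:60218406-60218465 and chr3:60218402-60218461, share the 56 bases in capitals.
EMCN, first outer probe: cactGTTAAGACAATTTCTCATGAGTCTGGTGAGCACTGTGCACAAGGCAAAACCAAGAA
EMCN, other outer probe: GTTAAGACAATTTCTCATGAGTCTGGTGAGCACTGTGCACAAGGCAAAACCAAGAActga
The MMRN1 probes lie end to end at chr3:51260802-51260861 and chr3:51260862-51260921, and the second ends in a stop codon, shown in capitals.
MMRN1, first probe: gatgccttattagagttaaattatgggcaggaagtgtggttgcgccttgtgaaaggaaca
MMRN1, second probe: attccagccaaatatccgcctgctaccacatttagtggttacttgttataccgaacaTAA
The 5 DLL4 probes also start within 4 bases of each other and the 7 S1PR1 probes within 22 bases, so the agreement among the probes of EMCN, DLL4 or S1PR1 is no independent check. The MMRN1 probes share no base, and their PO minus ED changes in TW were 1.40 and 1.44.

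Levels below are log2 of the processed signal minus the array's 75th percentile, so a level of 0 marks a spot as bright as that percentile, and levels of different genes are not compared. Between 64.3% and 82.5% of probes were well above background on each array. All 6 granulosa markers measured were lower in TW than in GC and all 8 theca stroma markers were higher, as the labels state, but 2 TW ED arrays, replicates 3 and 5, had mean levels of the 4 granulosa markers measured on every array of -1.57 and -0.35 against -4.87 to -4.41 on the other 3. The 4 TW arrays of slide 7 had 2.93% to 3.92% of spots excluded as outliers against 0.158% to 1.35% elsewhere. TW and GC arrays shared a slide only at LD, on slides 2 and 8, so slide and layer are largely confounded. In these bulk samples fewer endothelial cells and less RNA per cell cannot be told apart.

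Vessel genes marked TW. Of the 32 members, 28 were higher in TW than in GC over the 3 stages and none was lower (limma, adjusted p under 0.05), where 30% of all features were called higher and 22.6% lower. The median difference of the members was 3.67 on the log2 scale, and that of all features was 0.077. EMCN, NOS3, NOTCH4, PODXL, ESAM, ENG, APLNR, MMRN1, PROX1, CD34 and TM4SF18 were well above background on fewer than 5 GC arrays. They reached the 5 arrays of the filter only through TW, where they were high. Their calls, and with them the count and the median, were favoured by that filter. At ED 27 members were higher in TW (20.4% of all features), at LD 24 (19.3%) and at PO 28 (28.7%). By role, 12 of 15 surface and junction genes, both transcription factors, all 4 haemostasis and nitric oxide genes, 6 of 7 Notch, ephrin and other receptor genes and all 4 lymphatic genes were higher in TW. On slides 2 and 8, where the layers met at LD, 23 and 29 of the 32 members were higher in TW. With slide as a fixed block 22 members were called, and with slide as a random block 28.

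**Figure D1:**
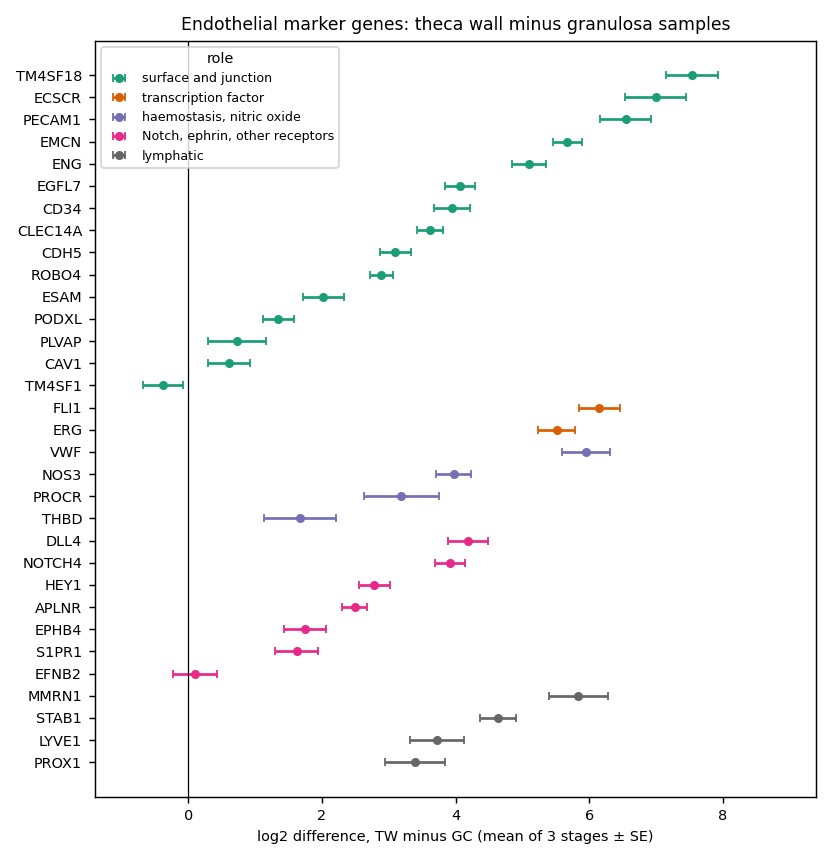
Difference between TW and GC for the 32 members (x axis, log2, mean of the 3 stage differences with SE from limma), grouped by role on the y axis and coloured by role. TM4SF18, ECSCR and PECAM1 lie farthest to the right at 7.54, 7.00 and 6.54, and TM4SF1 at -0.38 is the only member left of 0.

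TM4SF18, a small membrane protein related to TM4SF1, had the largest difference of the members, 7.54 ± 0.39 (SE, adjusted p = 1.49e-16). Its TW ED arrays read -0.19, -0.73, -0.68, 0.60 and -1.37, its TW LD arrays -1.77 to 0.41 with a median of -0.49, and its TW PO arrays 0.25, -0.16, 0.25, -0.17 and 0.18. The 15 GC arrays lay between -9.72 and -4.26 with a median of -8.17, so the layers did not overlap. Only 4 of those arrays were well above background, so the size of the difference rests on near-background spots, and it was 3.18 with normexp and 4.62 in the deposited table. ECSCR, an endothelial surface protein that acts in cell movement and survival, differed by 7.00 ± 0.46 (adjusted p = 6.38e-14). Its TW levels ran from -0.13 to 1.97 and its GC levels from -9.19 to -2.60 with a median of -6.04. PECAM1, an adhesion protein of the junctions between endothelial cells that leukocytes and platelets also carry, differed by 6.54 ± 0.39 (adjusted p = 6.54e-15). All 18 measured TW arrays, from -0.29 to 2.32, lay above the highest GC array at -3.12.

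FLI1, an ETS factor of endothelial and blood-forming cells, differed by 6.15 ± 0.31 (adjusted p = 9.57e-17). It read 0.68, 0.24, 0.09, 0.77 and -0.07 in TW ED, -0.50 to 0.69 with a median of 0.39 in TW LD and 0.69, 0.28, 0.61, 1.28 and 1.01 in TW PO. Its GC levels lay between -8.00 and -3.86 with a median of -5.76, with no overlap between the layers. VWF, the clotting protein that endothelial cells store and release, differed by 5.96 ± 0.36 (adjusted p = 5.97e-15). VWF read 1.06, 0.83, 0.83, 1.31 and 0.37 in TW ED, -0.30 to 1.42 with a median of 0.83 in TW LD, and 1.27, 0.84, 1.54, 2.34 and 2.04 in TW PO. Its GC arrays ran from -7.06 to -2.83, again apart from TW, although 13 of the 15 were well above background.

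EMCN, NOS3, NOTCH4 and PODXL were not well above background on any GC array, so each difference is a lower bound set by the dimmest probes that were. EMCN, a sialomucin of capillaries and veins, was at least 38.9-fold higher in TW (adjusted p = 6.39e-19), with TW levels between -4.15 and -1.89. For NOTCH4, the endothelial Notch receptor, the bound was at least 11-fold (measured difference 3.92), for NOS3 at least 9.98-fold (3.97) and for PODXL at least 1.67-fold (1.35). PODXL was well above background on only 7 of the 19 TW arrays, and its difference lost its call at 1.21 with slide as a fixed block and turned to -0.16 with normexp; the calls of NOTCH4 (0.23) and NOS3 (0.38) were lost there. The bound is the higher of the dim probe's own signal and the lowest signal well above background on each array, averaged over arrays.

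The remaining surface and receptor genes with called differences were ENG, a TGF-beta co-receptor, at 5.10, EGFL7, a secreted vessel protein, at 4.06, CD34, a sialomucin of endothelium and blood progenitors, at 3.95, and CLEC14A, a lectin-like vessel protein, at 3.62. CDH5, the adhesion molecule of endothelial junctions, differed by 3.10 and ROBO4, a guidance receptor that stabilises vessels, by 2.89. ESAM, another junction protein, differed by 2.02. Among the regulators, ERG, an ETS factor, differed by 5.51, DLL4, the Notch ligand of sprouting tip cells, by 4.18, HEY1, a Notch target, by 2.78, APLNR, the apelin receptor, by 2.49, and EPHB4, the venous ephrin receptor, by 1.75. PROCR, the receptor that presents protein C to thrombomodulin, differed by 3.19, THBD, thrombomodulin itself, by 1.67 and S1PR1, the receptor for sphingosine-1-phosphate, by 1.62. ESAM, ENG, MMRN1, APLNR, PROX1, CD34 and ERG were well above background on 1 to 5 of the 15 GC arrays, so the sizes of their differences also rest on near-background spots. With normexp the calls of APLNR (0.21), PROX1 (0.51) and EPHB4 (0.04) were lost and ESAM turned to -0.10. The THBD call was lost with slide as a fixed block, with normexp, with median centring or quantile normalization, and in the deposited value table, where the difference lay between 0.10 and 1.15. The S1PR1 and PROCR calls were each lost in 1 of the 11 settings other than single arrays left out. Within slides 2 and 8, where the layers met at LD, the S1PR1 difference was -0.84 and -0.04, lower in TW.

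PLVAP, CAV1, EFNB2 and TM4SF1 did not separate the layers. TM4SF1, a membrane protein of migrating endothelium and many epithelia, was the only member with a lower fitted mean in TW, at -0.38 ± 0.30 (adjusted p = 0.304), with its GC PO spots saturated. CAV1, the coat protein of caveolae in many cell types, differed by 0.61 ± 0.31 (adjusted p = 0.102), and quantile normalization, the deposited table, the mean of its 5 probes, or leaving out GC LD replicate 1 or 2 brought it past the threshold at 0.73 to 0.88. The small CAV1 average hides a turn: at ED the CAV1 levels of all 5 TW arrays lay above those of all 5 GC arrays. At PO the CAV1 and TM4SF1 levels of all 5 TW arrays lay below those of all 5 GC arrays. In the limma fit, however, neither gene was called lower in TW at PO.

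PLVAP, which forms the diaphragms of fenestrated capillaries, differed by 0.73 ± 0.44 (adjusted p = 0.165). Its GC ED arrays read -4.70, -4.40, -5.54, -5.96 and -6.59, GC LD -0.18, -3.66, -4.37, -5.39 and -5.76, and GC PO -6.70, -2.87, -6.55, -6.99 and -4.73. TW ED arrays read -4.61, -5.09, -3.90, -4.71 and -5.82, TW LD -5.37 to -2.76 with a median of -3.77, and TW PO -3.59, -2.77, -4.48, -4.17 and -4.50, inside the GC range. The highest PLVAP array of all was GC LD replicate 1, which also had the highest blood vessel mean of the GC arrays, -4.54, and a theca stroma mean of 1.37 over the 5 markers measured on every array. Without it the PLVAP difference was 1.03, and without GC PO replicate 2 it was 0.95, each past the threshold.

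EFNB2, the arterial ephrin ligand, showed almost no net layer difference, 0.10 ± 0.33 (adjusted p = 0.824). The sign of the net value turned under every scaling and background alternative run, from -0.60 to -0.36, and in the deposited table it was -0.49 with an adjusted p of 0.00205.

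The size of the layer difference, but not its direction for the members as a whole, depended on how background was treated. The members' median was 0.96 with normexp, where 20 members were called, 1.41 in the deposited table and 3.09 with median centring, which moved the median of all features to -0.50. The share of all called features that were higher in TW was 57.1%, and it was 38.4% in the deposited table, 42.8% with normexp, 24.2% with median centring and 39.5% with quantile normalization.

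Within TW, no member differed between ED and LD (limma, 0 of 32, where 0.0362% of all features were called in either direction; 5 members had an unadjusted p under 0.05). From LD to PO 14 of the 32 members rose and none fell, where 8.65% of all features were called higher. From ED to PO 15 rose and none fell, where 13.8% of all features were called higher. The median change of the members was 0.99 from LD to PO and 0.98 from ED to PO, against 0.03 and 0.04 for all features. The ED and LD comparisons share the PO arrays and are not independent. Over the 25 blood vessel members measured on every array, the mean level was -3.42 to -2.35 on TW ED arrays, -3.56 to -1.89 on TW LD arrays and -2.06 to -1.69 on TW PO arrays, so every PO array lay above every ED array and 2 of the LD arrays reached the PO range.

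**Figure D2:**
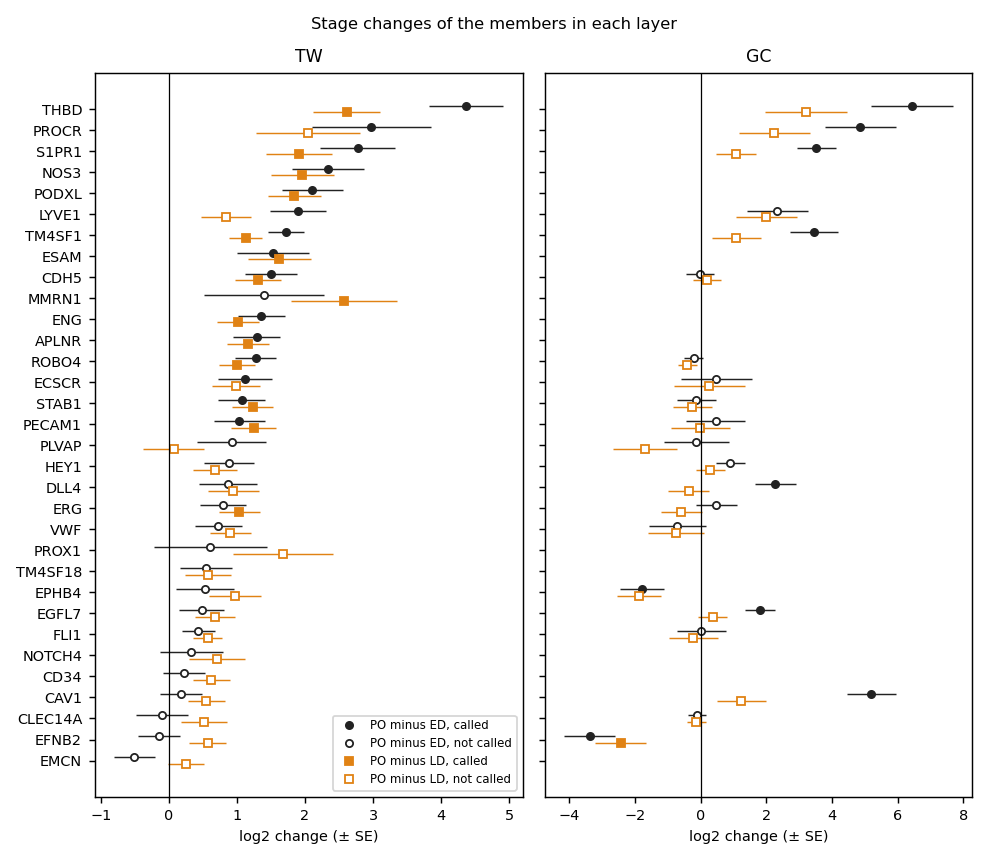
Stage changes of the members in TW (left) and of the 21 members fitted in GC (right), in log2 with SE; circles are PO minus ED, squares PO minus LD, and filled symbols passed adjusted p 0.05. In TW, THBD leads at 4.36 and EMCN is lowest at -0.50 for PO minus ED; in GC, THBD and CAV1 lie at 6.43 and 5.19 and EFNB2 at -3.38.

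By role, 8 of 15 surface genes rose from ED to PO and 7 from LD to PO. Of the haemostasis and nitric oxide genes 3 of 4 and 2 of 4 rose, of the 7 Notch, ephrin and other receptor genes 2 and 2, of the 2 transcription factors 0 and 1, and of the 4 lymphatic genes 2 and 2. CLEC14A, CD34, EGFL7, CAV1, PLVAP, EMCN, TM4SF18, FLI1, VWF, NOTCH4, DLL4, HEY1, EFNB2, EPHB4, PROCR, PROX1 and LYVE1 did not pass the test from LD to PO in TW, nor did ECSCR.

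THBD, which binds thrombin and turns it to the activation of protein C, changed most. TW ED arrays read -5.13, -5.10, -5.15, -6.63 and -5.10, the 8 measured TW LD arrays -5.23 to -1.88 with a median of -3.39, and TW PO arrays -0.68, -1.44, -0.38, -2.39 and -0.39. All 5 PO arrays lay above all 5 ED arrays and PO overlapped LD; the THBD spot of TW LD replicate 7 was flagged and left out of the fit. The rise from ED to PO was 4.36 ± 0.55 (adjusted p = 0.000359), 20.6-fold, and from LD to PO 2.61 ± 0.49 (adjusted p = 0.00638); with normexp the rises were 2.55 and 1.62, and the call from LD was lost in the deposited table.

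PROCR acts with THBD on the same surface. It read -1.54, -1.94, -1.73, -0.69 and -1.84 in TW ED, -2.24 to 2.83 with a median of -1.70 in TW LD, and 1.59, 1.83, 2.88, -0.24 and 1.07 in TW PO. PO and ED did not overlap, and LD spanned both. PROCR rose by 2.97 ± 0.87 from ED to PO (adjusted p = 0.0182), and the call was lost without the 2 TW ED arrays that carried granulosa markers, at 2.82.

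NOS3 makes nitric oxide in endothelium. The TW ED arrays read -5.06, -5.76, -5.83, -5.83 and -6.56, the TW LD arrays -6.50 to -3.45 with a median of -5.65, and the TW PO arrays -4.78, -3.81, -2.76, -3.42 and -2.60. PO lay wholly above ED and overlapped LD. The rise was 2.33 ± 0.53 from ED (adjusted p = 0.00451) and 1.96 ± 0.47 from LD (adjusted p = 0.0131); the LD comparison lost its call without TW PO replicate 5 and with slide as a block.

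S1PR1, which tightens endothelial junctions and guides lymphocytes, read -1.51, -1.75, -1.81, -1.42 and -2.14 in TW ED, -2.04 to 1.55 with a median of -1.10 in TW LD and 1.72, -0.02, 1.55, 0.16 and 1.84 in TW PO. Again PO was clear of ED and not of LD. S1PR1 rose by 2.78 ± 0.55 from ED (adjusted p = 0.00215) and 1.91 ± 0.49 from LD (adjusted p = 0.0164), the latter lost without TW PO replicate 1 or 5. APLNR read -4.79, -4.92, -4.91, -4.98 and -6.00 in TW ED, -6.09 to -3.89 with a median of -4.74 in TW LD and -3.69, -3.54, -4.18, -3.61 and -4.14 in TW PO. The PO arrays lay above all ED arrays, with changes of 1.29 ± 0.34 from ED (adjusted p = 0.0107) and 1.16 ± 0.30 from LD (adjusted p = 0.018). Both APLNR calls were lost with normexp, at 0.46 and 0.09.

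**Figure D3:**
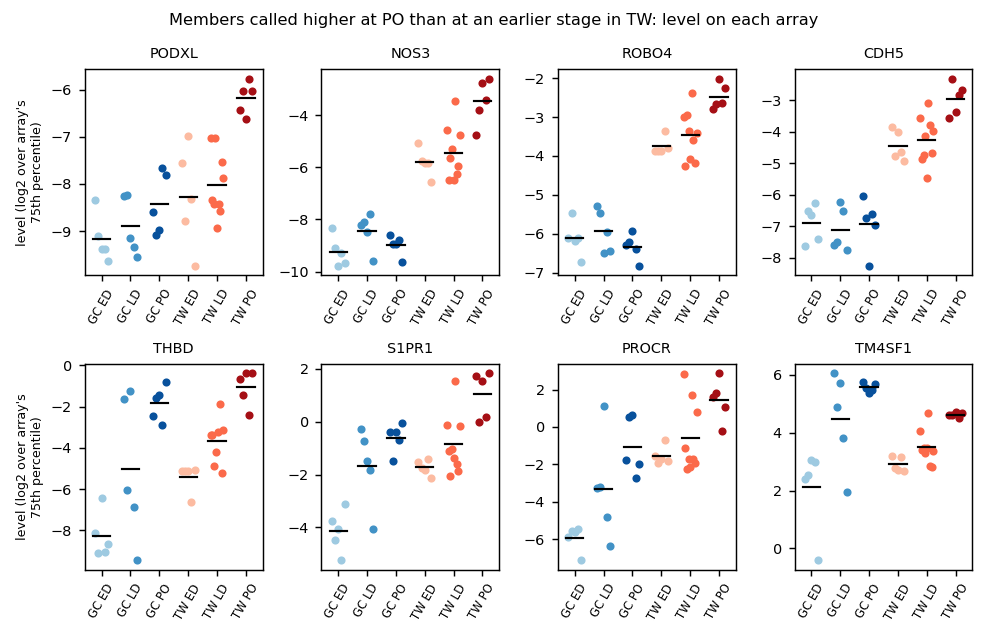
Levels on each array (y axis, log2 relative to the array's 75th percentile) of 8 members called higher at PO than at an earlier stage in TW, by group; points are arrays and bars are group means. THBD, S1PR1, PROCR and TM4SF1 also rise in GC, where PODXL and NOS3 were not well above background on any array.

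Among the junction and surface genes, CDH5 read -3.86, -4.76, -4.01, -4.65 and -4.92 in TW ED, -5.45 to -3.08 with a median of -4.15 in TW LD and -3.55, -2.31, -3.36, -2.84 and -2.66 in TW PO, with PO above all of ED. It rose by 1.50 ± 0.38 from ED (adjusted p = 0.00839) and 1.31 ± 0.33 from LD (adjusted p = 0.017). PECAM1 read 1.14, 0.74, 0.74, 1.95 and 0.69 in TW ED, -0.29 to 2.27 with a median of 0.64 on 8 TW LD arrays and 1.97, 1.86, 2.13, 2.32 and 2.16 in TW PO. Its PO arrays overlapped both earlier stages, by TW ED replicate 4 and the highest LD array. The PECAM1 rise was 1.25 ± 0.33 from LD (adjusted p = 0.0214) and 1.04 ± 0.37 from ED (adjusted p = 0.0471), and the ED call was lost without any of 12 of the 19 arrays.

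ENG read -3.15, -3.57, -2.83, -3.22 and -3.30 in TW ED, -3.50 to -1.50 with a median of -2.98 in TW LD and -2.54, -0.97, -1.58, -1.95 and -2.25 in TW PO. It rose by 1.36 ± 0.35 from ED (adjusted p = 0.00863), without overlap, and by 1.01 ± 0.30 from LD (adjusted p = 0.0327), a call lost without any of 8 arrays. ROBO4 read -3.86, -3.88, -3.87, -3.36 and -3.79 in TW ED, -4.26 to -2.39 with a median of -3.41 in TW LD and -2.80, -2.67, -2.02, -2.65 and -2.25 in TW PO. ROBO4 at PO lay above all of ED, with a rise of 1.28 ± 0.30 (adjusted p = 0.00553), and of 1.00 ± 0.27 from LD (adjusted p = 0.0199).

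PODXL, an anti-adhesive sialomucin of endothelium that podocytes and mesothelium share, was the only member whose PO arrays lay above every LD array as well as every ED array. TW ED arrays read -7.56, -8.78, -6.98, -8.31 and -9.74, TW LD -8.94 to -7.01 with a median of -8.34, and TW PO -6.42, -6.02, -6.63, -5.76 and -6.02. It rose by 2.10 ± 0.45 from ED (adjusted p = 0.00317) and 1.85 ± 0.40 from LD (adjusted p = 0.00904). PODXL was well above background on 1 TW ED array, 1 TW LD array and all 5 TW PO arrays. It passed the filter only through the PO arrays, where it was high, so the separation and the rises were favoured by that filter. These are dim spots: with normexp the changes were 0.14 and -0.28, and the deposited values gave 0.30 and 0.30, none of them called. ESAM, also dim, read -6.21, -8.49, -7.01, -7.26 and -7.97 in TW ED, -8.98 to -6.17 with a median of -7.58 in TW LD and -6.49, -6.06, -6.02, -6.06 and -4.67 in TW PO, overlapping both earlier stages. Its rises of 1.53 ± 0.53 (adjusted p = 0.0399) and 1.62 ± 0.47 (adjusted p = 0.0272) became 0.19 and -0.22 with normexp, and the ED call was also lost without any of 8 of the 19 arrays.

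TM4SF1 read 3.19, 2.79, 2.72, 3.16 and 2.67 in TW ED, 2.81 to 4.69 with a median of 3.39 in TW LD and 4.61, 4.61, 4.72, 4.50 and 4.69 in TW PO. PO was clear of ED and overlapped LD, and the probe was saturated on none of these arrays. It rose by 1.72 ± 0.27 from ED (adjusted p = 0.000683) and 1.13 ± 0.24 from LD (adjusted p = 0.00834). ECSCR read 0.80, 0.22, 0.38, 1.48 and -0.13 in TW ED, -0.09 to 1.97 with a median of 0.37 in TW LD, and 1.90, 1.27, 1.69 and 1.83 on the 4 TW PO arrays where its spot was not flagged. The PO and ED ranges overlapped, and the rise of 1.12 ± 0.39 from ED (adjusted p = 0.0442) was lost without any of 10 of the 19 arrays.

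ERG, which keeps endothelial genes switched on, read -1.98, -2.43, -2.34, -1.24 and -2.72 in TW ED, -3.10 to -1.32 with a median of -2.41 in TW LD and -1.57, -2.04, -1.24, -1.14 and -0.76 in TW PO. It rose from LD to PO by 1.03 ± 0.30 (adjusted p = 0.028), with overlap, and the call was lost without any of the 4 TW PO replicates 1, 3, 4 and 5. EMCN, by contrast with the members that rose, read -2.14, -2.95, -2.17, -1.89 and -2.88 in TW ED, -4.15 to -2.58 with a median of -3.09 in TW LD and -2.89, -2.99, -3.14, -2.37 and -3.17 in TW PO. Its change from ED to PO was -0.50, and from LD to PO its 5 probes gave -0.00 to 0.25, differing in sign; neither passed the test.

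Other cell types moved at the same step. Leukocyte markers rose at PO in TW, 8 of 11 from LD and 9 of 11 from ED, where 8.65% and 13.8% of all features were called higher. The summed level of the 10 markers measured on every array was 1.40 to 3.02 times the 75th percentile signal on TW ED arrays, 2.0 to 4.04 on TW LD arrays and 3.87 to 10.1 on TW PO arrays, with at least 9 of the 10 above background on every TW array. Of the 12 smooth muscle and pericyte markers 2 rose from LD and 3 from ED, and of the 8 theca stroma markers 0 and 1. The part of leukocytes in the rise of PECAM1, LYVE1, STAB1, THBD, PROCR or S1PR1, which blood cells can also express, was not tested.

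The 2 stage comparisons in TW were not equally firm. From ED to PO the count was 7 with normexp, which left ECSCR, LYVE1, PROCR, S1PR1, STAB1, THBD and TM4SF1, 14 with slide as a block and 9 without the 2 TW ED arrays that carried granulosa markers, where APLNR, ECSCR, ESAM, PECAM1, PROCR and STAB1 lost their calls. Of the 15 called members 14, all but ESAM, were higher at PO on every TW slide where both stages were measured. They had been called on these same arrays, so this is no separate check. ERG, FLI1 and VWF, not called from ED to PO, were also higher on every such slide. From LD to PO the count was 5 with normexp, which left PECAM1, S1PR1, STAB1, THBD and TM4SF1, 3 with slide as a block, which left PODXL, THBD and TM4SF1, 5 without TW PO replicate 5, 9 without TW PO replicate 3 and 23 without TW LD replicate 1. CDH5, ENG, ERG, ESAM, MMRN1, NOS3, PECAM1, ROBO4 and S1PR1 lost their LD to PO calls without TW PO replicate 5, and ENG, ERG, ESAM, MMRN1 and ROBO4 without replicate 3.

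In GC, 21 members were bright enough to be fitted. None differed between ED and LD (limma, 0 of 21, where 0.00394% of all features were called in either direction; 7 had an unadjusted p under 0.05). Only EFNB2 fell from LD to PO, where 10.6% of all features were called lower. From ED to PO 7 members rose, where 21.6% of all features were called higher, and 2 fell, where 22.4% were called lower. PECAM1, CDH5, VWF, FLI1, ERG, ECSCR, ROBO4, CLEC14A, PLVAP and STAB1, fitted in GC, had changes from ED to PO between -0.71 and 0.48. None of these passed the test. LYVE1 and HEY1, also fitted in GC, had larger rises of 2.34 and 0.905 that did not pass either.

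CAV1 read -0.89, -0.12, -0.97, -0.88 and -2.07 in GC ED, 4.67, 4.45, 4.25, 0.87 and 0.62 in GC LD and 4.22, 3.73, 4.61, 3.65 and 4.82 in GC PO. Every PO array was above every ED array, and the LD arrays split, 3 within the PO range and 2 between the ED and PO ranges. The change from ED to PO was 5.19 ± 0.74 (adjusted p = 0.000225), 36.6-fold. In TW the same gene read 2.24, 2.71, 2.35, 3.96 and 2.42 at ED, 1.97 to 3.58 with a median of 2.23 at LD and 2.81, 2.91, 2.63, 3.04 and 3.17 at PO, without a called change.

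THBD read -8.15, -9.11, -6.42, -9.02 and -8.65 in GC ED, -1.65, -6.02, -1.23, -6.86 and -9.45 in GC LD and -2.44, -1.61, -1.45, -2.90 and -0.79 in GC PO. The ED and PO arrays were far apart, and LD spanned both. THBD was well above background on 1 of the 5 GC ED arrays, so the fitted rise of 6.43 ± 1.25 (adjusted p = 0.00107) starts from near-background spots; it was 1.67 with normexp and 3.47 in the deposited table, both called. THBD met the filter of the GC fit only through its PO arrays, where it was high, so the rise was favoured by that filter. PROCR read -5.87, -5.55, -5.63, -5.46 and -7.13 in GC ED, -3.26, -3.24, 1.14, -4.81 and -6.36 in GC LD and -1.78, 0.51, 0.65, -2.71 and -2.0 in GC PO. PROCR rose by 4.86 ± 1.08 (adjusted p = 0.00253), without overlap between ED and PO.

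S1PR1 read -3.74, -4.47, -4.05, -5.24 and -3.10 in GC ED, -0.26, -0.74, -1.49, -1.82 and -4.06 in GC LD and -0.39, -1.47, -0.40, -0.70 and -0.03 in GC PO, a rise of 3.52 ± 0.60 (adjusted p = 0.00048). TM4SF1 read 2.39, 2.53, 3.08, 3.00 and -0.41 in GC ED, 6.06, 4.89, 5.73, 3.81 and 1.94 in GC LD and 5.77, 5.55, 5.38, 5.48 and 5.68 in GC PO. Its probe was saturated on all 5 GC PO arrays and on 1 GC LD array, so TM4SF1 was at least 11-fold higher at PO than at ED (fitted change 3.46 ± 0.74, adjusted p = 0.002). That bound rests on GC ED replicate 5, the array at -0.41: without it the fitted change was 2.82, still called. Neither gene's ED arrays reached its PO arrays. THBD, PROCR, S1PR1 and TM4SF1 were thus called higher at PO than at ED in both layers. They were 4 of the 15 members called in TW, where 13.8% of all features were called higher. They were also 4 of the 7 called in GC, where 21.6% were. The share of all features called higher in both layers was not worked out, so the shared count shows nothing particular to vessel genes.

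**Figure D4:**
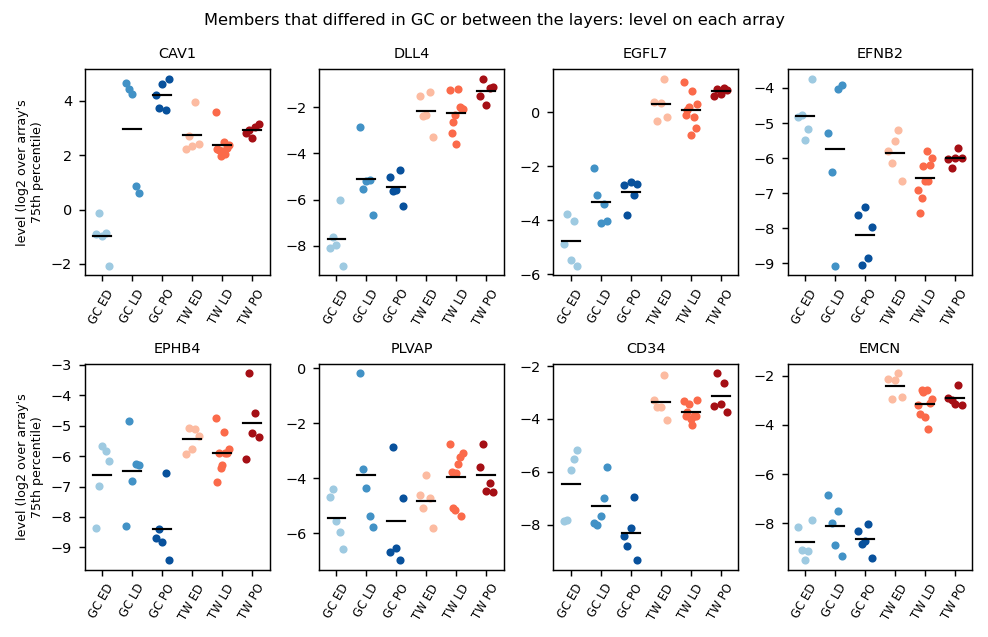
Levels on each array (y axis, log2 relative to the array's 75th percentile) of 8 members that changed in GC, changed differently between the layers or are described for their layer pattern; points are arrays, bars are group means. GC CAV1 rises from -2.07 to -0.12 at ED to 3.65 to 4.82 at PO, EFNB2 falls, and the GC LD arrays are spread between.

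DLL4 and EGFL7 rose from low GC levels. DLL4 read -8.08, -7.65, -7.99, -6.02 and -8.87 in GC ED, -2.87, -5.56, -5.20, -5.14 and -6.67 in GC LD and -5.02, -5.65, -5.59, -4.72 and -6.29 in GC PO, with the highest ED array inside the PO range. The DLL4 change of 2.27 ± 0.62 (adjusted p = 0.00895) was -0.05 with normexp and 0.79 in the deposited table, neither called, and its 5 probes gave -0.68 to 0.43 from LD to PO. EGFL7 read -4.87, -3.75, -5.46, -4.04 and -5.68 in GC ED, -2.05, -3.07, -4.08, -3.39 and -4.04 in GC LD and -2.70, -3.82, -2.58, -3.05 and -2.65 in GC PO, with overlap. It rose by 1.80 ± 0.45 (adjusted p = 0.00519), a call lost with normexp at 0.39. In TW neither change passed: DLL4 read -1.49, -2.39, -2.35, -1.35 and -3.27 at ED and -1.52, -0.76, -1.92, -1.17 and -1.11 at PO, and EGFL7 0.37, -0.32, 0.34, 1.24 and -0.19 at ED and 0.60, 0.87, 0.68, 0.90 and 0.81 at PO. At LD in TW the DLL4 arrays lay between -3.57 and -1.20 with a median of -2.08 and the EGFL7 arrays between -0.85 and 1.14 with a median of 0.08.

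The ephrin pair fell in GC. EFNB2 read -4.83, -4.78, -5.50, -5.17 and -3.74 in GC ED, -5.30, -6.39, -9.07, -4.04 and -3.91 in GC LD and -7.63, -9.06, -7.39, -8.85 and -7.97 in GC PO, where no array was well above background. It was at least 7.89-fold lower at PO than at ED (fitted change -3.38 ± 0.78, adjusted p = 0.00323) and at least 4.11-fold lower than at LD (-2.44 ± 0.78, adjusted p = 0.0445), a call lost without any of 13 of the 15 arrays. EFNB2 met the filter of the GC fit only through its ED arrays, where it was high, so its fall from ED was favoured by that filter. EPHB4, its receptor, read -8.37, -7.00, -5.66, -5.84 and -6.17 in GC ED, -8.31, -4.86, -6.81, -6.24 and -6.29 in GC LD and -8.71, -8.41, -8.83, -6.56 and -9.42 in GC PO. EPHB4 fell by 1.78 ± 0.67 from ED to PO (adjusted p = 0.0431), with overlap, and the call was lost without any of 9 of the 15 arrays. With normexp neither fall from ED passed, at -0.65 for EFNB2 and -0.45 for EPHB4.

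In GC the smooth muscle and pericyte markers also moved, 4 of 10 fitted rising from ED to PO, where 21.6% of all features were called higher. Of 11 leukocyte markers 3 rose, a share near that background, and 1 fell, CD3E of the T cell receptor complex (-3.02 ± 0.77, adjusted p = 0.00602). Of 6 granulosa markers 3 fell, where 22.4% of all features were called lower; their part in the changes of the members was not tested. The mean level of the 25 blood vessel members was -6.84 to -5.91 on GC ED arrays, -6.32 to -4.54 on GC LD arrays and -5.95 to -5.35 on GC PO arrays. The count from ED to PO was 5 with normexp, and CAV1, THBD, PROCR, S1PR1 and TM4SF1 kept their calls under each setting run and with any GC array left out.

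The change from ED to PO differed between the layers for 7 members, higher in TW for 6 (15.7% of all features were called in that direction) and lower for CAV1 (13.7%). From LD to PO it was higher in TW for 4 (10.8% of all features). From ED to LD no member differed (limma, 0 of 32, where 0% of all features were called; 5 had an unadjusted p under 0.05). The members' counts higher in TW, from ED to PO and from LD to PO, are close to the share of all features, so they say nothing particular to vessel genes. Lower in TW there was only CAV1, a smaller share than that of all features, and that gap was not tested. With normexp CAV1 was the only one of the 7 that kept its ED to PO call, and none of the 4 kept its LD to PO call.

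CAV1 rose in GC and not in TW, a difference of -5.02 ± 0.79 (adjusted p = 6.63e-05). EFNB2 read -5.79, -6.15, -5.52, -5.19 and -6.65 in TW ED, -7.58 to -5.81 with a median of -6.65 in TW LD and -6.02, -6.27, -6.01, -5.71 and -6.00 in TW PO, level where GC fell, and the changes differed by 3.24 ± 0.83 from ED (adjusted p = 0.00447) and 3.01 ± 0.78 from LD (adjusted p = 0.00799). EPHB4 read -5.93, -5.06, -5.77, -5.11 and -5.33 in TW ED, -6.85 to -4.76 with a median of -5.90 in TW LD and -6.09, -3.27, -5.23, -4.59 and -5.38 in TW PO. Its changes differed by 2.31 ± 0.80 (adjusted p = 0.0297) and 2.86 ± 0.75 (adjusted p = 0.00871).

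NOS3, too dim in GC to be fitted there, and ROBO4, with no called change in GC, had changes higher in TW by 2.08 ± 0.67 (adjusted p = 0.0192) and 1.49 ± 0.42 (adjusted p = 0.0093) from ED and 2.51 ± 0.63 (adjusted p = 0.00643) and 1.40 ± 0.40 (adjusted p = 0.0139) from LD. The GC levels of NOS3 lay between -9.78 and -7.78, none well above background, and those of ROBO4 between -6.82 and -5.29. The NOS3 probe entered the fit through its TW arrays, so its difference of changes mostly restates its TW rise. CDH5 differed by 1.53 ± 0.58 from ED (adjusted p = 0.0463), a call lost without any of 12 of the 34 arrays. CD34 had no called change in TW and was too dim to be fitted in GC alone, yet in the fit of all arrays its changes differed by 2.09 ± 0.68 (adjusted p = 0.0215). CD34 read -3.27, -3.56, -3.54, -2.35 and -4.04 in TW ED, -4.22 to -3.30 with a median of -3.87 in TW LD and -3.53, -2.27, -3.43, -2.64 and -3.75 in TW PO. In GC it read -7.86, -7.83, -5.94, -5.52 and -5.15 at ED, -7.92, -8.01, -7.68, -6.97 and -5.80 at LD and -8.43, -8.78, -8.13, -6.94 and -9.33 at PO, with 4 of the 15 arrays well above background. Those were 3 ED arrays and 1 LD array and no PO array, so the CD34 difference also rests on near-background spots. Without the 2 TW ED arrays that carried granulosa markers the CD34, CDH5, EPHB4 and NOS3 calls from ED were lost, at 1.79, 1.51, 2.23 and 1.82.

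The 4 lymphatic genes were all higher in TW than in GC, as were 24 of the 28 blood vessel genes. Of the lymphatic genes, MMRN1 and PROX1 reached the filter only through TW, where they were high. MMRN1 differed by 5.83 ± 0.44 (adjusted p = 1.09e-12), STAB1 by 4.63 ± 0.27 (adjusted p = 2.94e-15), LYVE1 by 3.72 ± 0.40 (adjusted p = 2.33e-09) and PROX1 by 3.39 ± 0.45 (adjusted p = 1.42e-07). From LD to PO in TW 2 of the 4 rose, MMRN1 and STAB1, beside 12 of the 28 blood vessel genes and 8.65% of all features, and from ED to PO 2 of the 4, LYVE1 and STAB1, beside 13 of the 28 and 13.8% of all features. The mean lymphatic level was -3.44 to -0.78 on TW ED arrays, -3.58 to -1.55 on TW LD arrays and -2.67 to -0.43 on TW PO arrays, so PO overlapped both earlier stages; whether the blood and lymphatic genes differ was not tested.

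LYVE1, the hyaluronan receptor of lymphatic endothelium and of some macrophages, read -3.12, -2.82, -2.40, -1.29 and -3.56 in TW ED, -2.88 to -0.35 with a median of -1.75 in TW LD and -0.11, -0.91, -0.94, -0.89 and -0.87 in TW PO. All PO arrays lay above all ED arrays and within reach of LD. It rose by 1.90 ± 0.41 from ED (adjusted p = 0.00369), while its change from LD was 0.84 ± 0.37 (adjusted p = 0.121). In GC, LYVE1 read -6.26, -6.28, -4.81, -6.44 and -7.55 at ED, -5.04, -6.87, -2.38, -7.35 and -8.02 at LD and -5.35, -2.04, -3.90, -5.08 and -3.27 at PO. STAB1, a scavenger receptor of lymphatic and sinusoidal endothelium and of macrophages, read -1.81, -1.67, -2.17, -0.40 and -2.12 in TW ED, -2.49 to -1.08 with a median of -1.74 in TW LD and -0.54, -1.36, -0.57, 0.24 and -0.57 in TW PO. STAB1 rose by 1.23 ± 0.31 from LD (adjusted p = 0.015) and 1.07 ± 0.35 from ED (adjusted p = 0.0293), the latter lost without any of 8 of the 19 arrays. Its GC arrays lay between -7.71 and -4.36 with a median of -5.80.

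PROX1 and MMRN1 varied widely between arrays of a group. PROX1 read -4.86, -3.91, -5.53, -2.03 and -4.10 in TW ED, -7.60 to -2.89 with a median of -4.97 in TW LD and -2.02, -5.80, -2.58, -4.75 and -2.22 in TW PO, so that PO held both high and low arrays. Its changes of 0.61 ± 0.83 from ED (adjusted p = 0.611) and 1.68 ± 0.73 from LD (adjusted p = 0.119) did not pass. In GC, PROX1 lay between -9.19 and -4.25 with a median of -8.35, above background on 3 of 15 arrays, all of them PO. Its GC mean was -8.45 at ED, -8.42 at LD and -6.01 at PO. The GC PO arrays read -6.33, -9.13, -5.18, -5.15 and -4.25 and overlapped TW PO. PROX1 was too dim to be fitted in GC alone, so this change was not tested. MMRN1 read -3.72, -2.25, -3.65, 0.63 and -0.65 in TW ED, -4.33 to -0.29 with a median of -3.30 in TW LD and 0.94, -2.63, 0.89, -1.71 and -0.14 in TW PO. MMRN1 rose by 2.57 ± 0.78 from LD (adjusted p = 0.0333), a call lost without any of 7 of the 19 arrays, and its change from ED was 1.40 ± 0.88 (adjusted p = 0.247). The GC levels of MMRN1 lay between -8.82 and -5.08 with a median of -8.01.

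The same 5 of the 19 TW arrays were highest for PROX1 and for MMRN1, namely PO replicates 1, 3 and 5, ED replicate 4 and LD replicate 2. STAB1 shared 4 of its 5 highest arrays with each of them and LYVE1 shared 3. Of the 5 arrays with the highest blood vessel mean, 2 were among the 5 highest for PROX1 and for MMRN1. The within-group SD in TW was 1.50 for MMRN1, 1.48 for PROCR and 1.41 for PROX1, the highest of the members, whose median was 0.62 against 0.47 for all features.

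**Figure D5:**
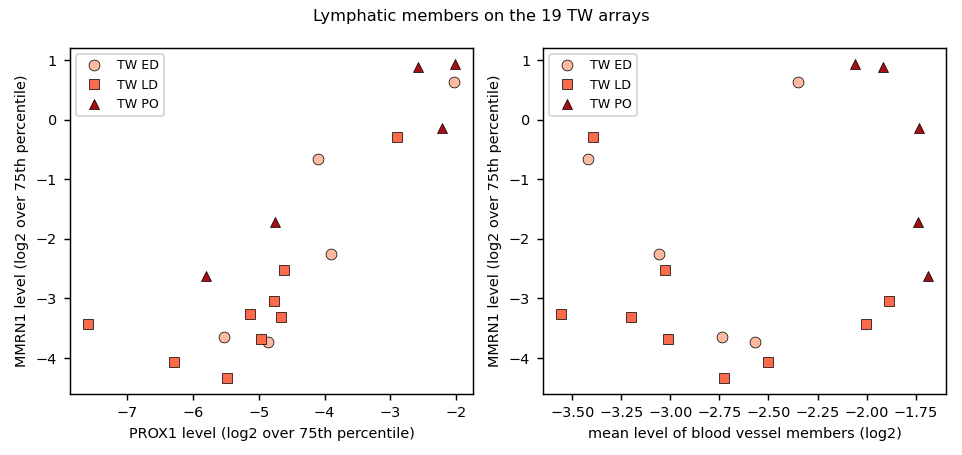
MMRN1 level on the 19 TW arrays (y axis, log2 relative to the 75th percentile) against the PROX1 level (left) and against the mean level of the 25 blood vessel members measured on every array (right); each point is an array, with its shape and colour giving the stage. The 5 arrays highest for PROX1 are the 5 highest for MMRN1, while PO arrays of low MMRN1, at -2.63 and -1.71, have blood vessel means of -1.69 and -1.74.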

How the data were processed

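The members and every gene list were chosen with earlier results of these data known. Scanner files hold intensity values as deposited by the authors; per the file headers they come from Feature Extraction 9.5.3.1, and per the submitters' processing notes from version 9.1. The processed signal subtracts a fitted spatial background surface on 100% of spots. Per the labels, total RNA was amplified with an oligo(dT)-T7 primer and labelled with Cy3. Here log2 of the deposited processed signal was centred on each array's 75th percentile, and spots of a probe were averaged. The deposited value table is log2 as well; it differed by at most 0.0329 from log2 mean signal that was quantile-normalized with no background taken off, so its scale and direction are known, and its column medians were 7.29.

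Features well above background on 5 or more arrays of a fit were tested with limma 3.58.1 (R 4.3.3), with Benjamini-Hochberg adjustment over all features: layers and differences of changes on 34 arrays, stages within TW (19) or GC (15). A gene was read by its brightest probe, and outlier-flagged spots were dropped; means and sums over a list use its genes measured on every array. Of the 32 members, 22 matched by name, number or accession and 10 by protein name; symbols were updated through RefSeq. Array values are given for members called in a stage or difference-of-changes test, the 5 highest and 5 lowest layer differences, any member higher in GC, and the lymphatic genes; GC values of the others are given over 15 arrays. The code was tested on simulated data. Alternatives were other scalings, background correction, filters, probe choice, slide as a block, the deposited table, all 34 arrays in 1 fit and each array left out. No depth applies to arrays; the number of arrays limits precision. P-values measure the spread between samples the design text calls biological replicates.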

Additional observations from a re-analysis of the deposited data

Results flagged for a closer look

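An array was singled out where it stood far from the rest of its own group, by the gap to its nearest neighbour as a share of the group's range. Chance does this in about 1 in 20 groups, and 10 of 115 member and group sets met it. Arrays above their group were ESAM in TW PO replicate 5 at -4.67 (next -6.02), ROBO4 in TW ED replicate 4 at -3.36 (next -3.79), CAV1 in TW ED replicate 4 at 3.96 (next 2.71), CAV1 in TW LD replicate 1 at 3.58 (next 2.47), LYVE1 in TW PO replicate 1 at -0.11 (next -0.87), MMRN1 in TW LD replicate 2 at -0.29 (next -2.52) and STAB1 in TW ED replicate 4 at -0.40 (next -1.67). Arrays below their group were TM4SF1 in GC ED replicate 5 at -0.41 (next 2.39), PROCR in GC ED replicate 5 at -7.13 (next -5.87) and APLNR in TW ED replicate 5 at -6.00 (next -4.98). TW ED replicate 4 accounts for 3 of the 10, and TW ED replicate 5 is one of the arrays with granulosa markers.

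A stage change that differed between the layers, by the test of the difference itself, was the other reason. From ED to PO the TW change minus the GC change was -5.02 for CAV1, 3.24 for EFNB2, 2.31 for EPHB4, 2.09 for CD34, 2.08 for NOS3, 1.53 for CDH5 and 1.49 for ROBO4. From LD to PO it was 3.01 for EFNB2, 2.86 for EPHB4, 2.51 for NOS3 and 1.40 for ROBO4. No GC array of NOS3 was well above background, so its values mostly restate its TW rise, and those of CD34 rest on near-background GC spots.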

How the results depend on the processing

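Over 83 results for a layer, a member or a difference of changes, 28 kept their side of the threshold and direction under every setting run, among them the TW rises from ED to PO of THBD, S1PR1 and TM4SF1. The count of members called for the layer was 28 to 30 without each array in turn, for TW LD minus ED 0, for TW PO minus LD 5 to 23, for TW PO minus ED 11 to 15, for GC LD minus ED 0 to 5 (5 without GC LD replicate 5), for GC PO minus LD 0 to 4, for GC PO minus ED 8 to 10, and for the difference of changes from ED to PO 5 to 8. For TW PO minus LD (14) it was 5 with normexp, 3 with slide as a fixed block and 8 with all 34 arrays in 1 fit. For TW PO minus ED (15) it was 7 with normexp and 9 without the 2 TW ED arrays with granulosa markers, an alternative chosen after seeing the data. For GC LD minus ED (0) it was 6 and for GC PO minus LD (1) it was 5 with all 34 arrays in 1 fit; the latter was 0 with normexp, with the deposited table, with median centring and with quantile normalization, and 2 with slide as a block. For GC PO minus ED (9) it was 5 with normexp, and for the difference of changes (7) it was 3 with normexp and 3 without the 2 TW ED arrays. The cause was not tested. Signs turned with normexp for DLL4 in GC PO minus ED (-0.046), ESAM and PODXL in TW PO minus LD (-0.22 and -0.28), and ESAM, PODXL and PLVAP between layers (-0.10, -0.16 and -0.078). For PLVAP the layer sign also turned with quantile normalization (-0.030) and the deposited table (-0.075). For EFNB2 the layer value was -0.36 with normexp, -0.49 in the deposited table, -0.49 with median centring, -0.60 with quantile normalization, -0.49 with slide as a block, -0.016 without slide 7 and -0.18 (without GC LD replicate 3) to 0.25 (without GC LD replicate 5) with each array left out. The share of all called features that were higher was 55.9% for TW PO minus LD and 26.4% with median centring, 52.7% and 30.4% for TW PO minus ED, 38.9% and 49.7% for GC PO minus LD, and 53.4% and 36.7% for the difference of changes. No paired analysis was possible because replicate numbers follow accession order and pair no samples. Dim probes, PODXL and ESAM among the members, limit what the arrays show.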

Other observations

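Vessel genes outside the list of members gave a mixed picture. Of 9 other endothelial receptors 8 were higher in TW than in GC, where 30% of all features were called higher. KDR, FLT1, TEK, TIE1, NRP2, ACVRL1 and PTPRB reached the filter only through TW, where they were high, which favoured their calls. TEK, the angiopoietin receptor, was not well above background on any GC array and was at least 56.8-fold higher in TW, while BMPR2, a receptor that many cell types carry, was lower in TW by a log2 difference of -1.48 ± 0.21 (SE, adjusted p = 3.56e-07). KDR and FLT1, the VEGF receptors, differed between layers by 4.22 and 1.93, yet their changes from LD to PO in TW, 0.64 ± 0.32 (adjusted p = 0.166) and 0.47 ± 0.35 (adjusted p = 0.361), did not pass. BMPR2, NRP2 and TIE1 rose from LD to PO in TW, by 1.64, 1.30 and 1.18, where 8.65% of all features were called higher. BMPR2 and TEK rose from ED to PO, by 1.73 and 1.48, where 13.8% were.

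Genes that activated endothelium switches on were also measured, 6 in all. Of these 3 rose from ED to PO in TW and 2 from LD to PO, where 13.8% and 8.65% of all features were called higher. SELP, the selectin stored with VWF, rose by 3.10 ± 0.59 from ED to PO in TW (adjusted p = 0.00177) and by 2.34 ± 0.52 from LD (adjusted p = 0.0102). Its mean level was -3.59 ± 0.63 (SD, n = 5) at ED, -2.83 ± 1.29 (n = 9) at LD and -0.49 ± 0.50 (n = 5) at PO. SELE, another leukocyte-binding selectin, rose by 2.04 ± 0.49 from ED (adjusted p = 0.00641), and ANGPT2, which loosens vessels, by 1.74 ± 0.50 (adjusted p = 0.0165). The other three did not pass from ED to PO, with changes of -1.27 ± 0.54 for ESM1 (adjusted p = 0.0863), -0.30 ± 0.47 for VCAM1 (adjusted p = 0.662) and 0.50 ± 0.35 for ICAM1 (adjusted p = 0.294). ANGPT2 rose in GC too, by 5.47 ± 1.11 (adjusted p = 0.0014).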
